A study of Rattus norvegicus with 6 samples.

Results

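The integrin genes examined here are Itga3, Itga6 and Itga7, which encode the laminin-binding alpha subunits, Itgb1 and Itgb4, which encode their beta partners, and Itga1, Itga2, Itga5 and Itgav, which encode alpha subunits for collagen, fibronectin and vitronectin. The genes were taken by name from the deposited rat assembly, where all 9 names were found among 24579 gene models, with 24 of the 60887 assembled transcripts. Itga3 was selected on the RPKM shares of its transcripts in these same libraries, which differed between the groups, so its values are given as a description with no test. The other genes were added as its relatives by name. RNA sequencing measured primary rat beta cells, which make insulin in the islets of the pancreas and had been purified by fluorescence-activated cell sorting. The Nova1 knockdown group received 30 nM of an siRNA that targets Nova1, whose protein binds RNA and regulates alternative splicing, and the control group received 30 nM of a negative control siRNA. Cells of both groups were transfected for 16 h with a lipid reagent and recovered for 48 h. Each of 3 numbered batches gave 1 knockdown and 1 control library (n = 3 libraries per group). Whether each batch was a separate group of animals is not stated, and the p-values therefore cover only the variation among these 3 batches, which may be technical. The sex, strain and age of the rats are not given in the labels.

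Integrins are cell surface receptors made of an alpha and a beta subunit that bind the extracellular matrix outside the cell and link it to the cytoskeleton inside. Laminin, a protein of the basement membrane, is bound by alpha-3, alpha-6 and alpha-7 subunits paired with beta-1, and by alpha-6 paired with beta-4. Islet capillaries are surrounded by a basement membrane, and beta cells contact its laminin through integrins. The transcripts of Itga3, Itga6 and Itga7 each exist in an A form and a B form. The A form holds an alternative exon near the end of the transcript that the B form skips, and the 2 forms encode different cytoplasmic tails.

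The libraries held 95394043 to 146453308 reads assigned to transcripts in the knockdown group and 122637234 to 292432076 in the control group, and the control was the deeper library in every batch. Nova1 RNA was at 7.76, 10.2 and 9.43 CPM (reads scaled per library) in knockdown batches 1, 2 and 3, against 20.6, 21.5 and 17.4 CPM in control batches 1, 2 and 3. Nova1 fell in the knockdown group by 1.12 on the log2 scale (SE 0.11, adjusted p = 0.038 in limma), and its RNA was still read in every knockdown library. In deposited RPKM, which is also scaled by transcript length, Nova1 was at 1.38, 2.38 and 1.81 in knockdown batches 1, 2 and 3. In control batches 1, 2 and 3 it was at 5.06, 2.83 and 2.03 RPKM. On this scale the group ranges overlapped, and the drop was smaller in batches 2 and 3 than in batch 1. The summed level of 10 beta cell markers was 98044 to 235897 CPM in knockdown libraries and 136007 to 244568 CPM in control libraries. The lowest value in each group was in batch 2, which lay apart from batches 1 and 3 on a first principal component with 70.6% of the variance. Of the beta cell markers, G6pc2 alone did not pass the filter on low reads. Markers of other cells were also read. Stellate cell and fibroblast markers summed to 109 to 140 CPM in knockdown and 44.2 to 98.2 CPM in control libraries, with 0 of 11 listed at 0 throughout. Among the 10 endothelial markers Cdh5, Tek, Vwf and Emcn did not pass the filter, and the list summed to 5.60 to 9.78 CPM in knockdown and 6.92 to 8.52 CPM in control libraries. In bulk libraries, fewer cells of a type and less RNA per cell cannot be told apart.

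Itga3, on the minus strand of chromosome 10 between 82666848 and 82699194 of Rnor_5.0, was assembled as 6 transcripts, and its main transcript differed between the groups. The first of the main transcripts has 27 exons and holds the alternative exon, a stretch of 141 bp between 82668800 and 82668940 that is its exon 26. Its RPKM values (reads per kilobase of transcript and library total, as deposited) were 23.8, 40.2 and 20.4 in knockdown batches 1, 2 and 3, against 1.22, 2.78 and 0.555 in control batches 1, 2 and 3. The other main transcript has 25 exons and skips the alternative exon. It was at 1.41, 1.71 and 1.09 RPKM in knockdown batches 1, 2 and 3, against 28.5, 46.0 and 18.6 RPKM in control batches 1, 2 and 3. For each of these transcripts the ranges of the knockdown and control groups did not overlap. In each group the major form was highest in batch 2.

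**Figure D1:**
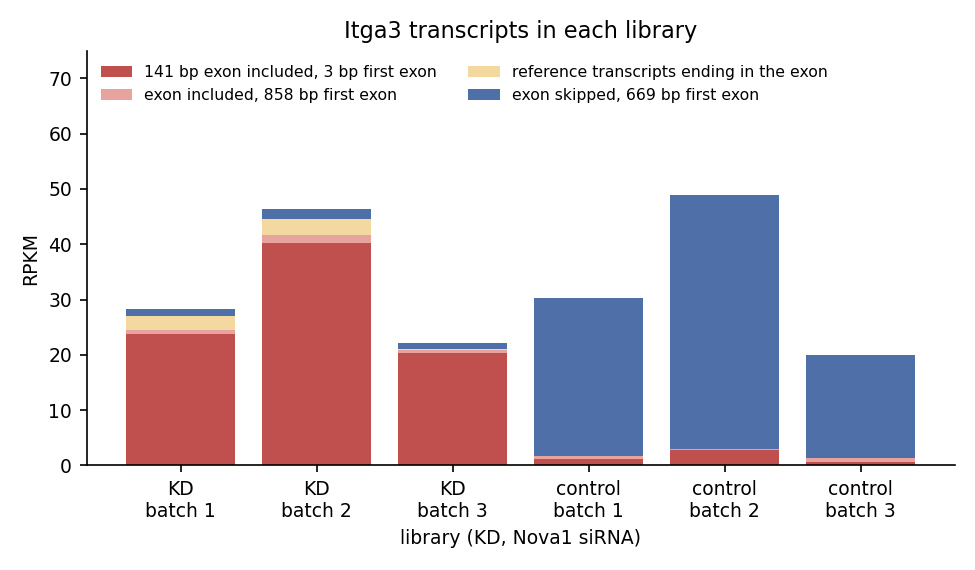
RPKM of the Itga3 transcripts (vertical axis) in each library, with knockdown libraries at left and control libraries at right; the colours separate transcripts that hold the 141 bp exon with a 3 bp or an 858 bp first exon, reference transcripts that end inside the exon, and the transcript that skips it. The total heights lie between 22.2 and 46.4 RPKM in knockdown and between 19.9 and 49.0 RPKM in control libraries, while the major colour differs between the groups.

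The RPKM summed over the 6 Itga3 transcripts was 28.4, 46.4 and 22.2 in knockdown batches 1, 2 and 3, against 30.2, 49.0 and 19.9 in control batches 1, 2 and 3. The groups overlapped, and batch 2 was the highest in each group. These sums rest on 17562, 22178 and 16144 reads in the knockdown and 42854, 30106 and 19942 reads in the control libraries. The log2 fold change of the gene sum was -0.08 (SE 0.07), with values of -0.14, -0.18 and 0.09 in batches 1, 2 and 3.

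Inclusion of the 141 bp exon was taken as the percentage of RPKM on transcripts that hold it, among the 4 assembled with the exons on both its sides. Inclusion was 94.6%, 96.1% and 95.1% in knockdown batches 1, 2 and 3, against 5.85%, 6.10% and 6.32% in control batches 1, 2 and 3. The mean was 95.2 ± 0.77% in knockdown and 6.09 ± 0.24% in control libraries (SD, n = 3 each), a difference of 89.1 percentage points. The SD within each group was below 1 percentage point. With the estimated reads in place of RPKM the inclusion was 94.6%, 96.1% and 95.1% in knockdown and 6.18%, 6.19% and 6.93% in control libraries.

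The main transcripts of Itga3 also differ at their 5′ end, and the exon and the 5′ end cannot be told apart from these transcripts alone. The transcript that skips the exon starts with an exon of 669 bp. In the transcript that holds it, the same region is split by an intron of 90 bp into a first exon of 3 bp and a second exon of 547 bp. The pair shares 4694 bp, which is 97.1% of the transcript that holds the exon. Only 141 bp, all of them in the alternative exon, belong to the including transcript alone, and 119 bp, all at the 5′ end, belong to the skipping transcript alone. How the authors' program used reads over these stretches is not given in the sources used here. Transcripts with the split 5′ end took 86.6%, 90.0% and 94.2% of the gene's RPKM in knockdown batches 1, 2 and 3, against 5.85%, 6.10% and 6.32% in control batches 1, 2 and 3. A further transcript holds the alternative exon and is also split at the 5′ end, by an intron of 98 bp behind a first exon of 858 bp, and it is counted in these percentages. It was at 0.753, 1.54 and 0.524 RPKM in knockdown and 0.546, 0.210 and 0.702 RPKM in control libraries, and here the groups overlapped.

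The reference annotation holds 2 short Itga3 transcripts that end 111 bp into the alternative exon and lack the split 5′ end. Both were listed at 0 in all 3 control libraries, where a listed 0 can be a failed estimate. Together they were at 2.40, 2.91 and 0.202 RPKM in knockdown batches 1, 2 and 3. The values of batches 1 and 3 came wholly from a reference transcript that was listed at 0 in batch 2, and the value of batch 2 came from the other. When these transcripts are counted, transcripts with the exon took 95.5 ± 0.72% of the gene's RPKM in knockdown and 6.09 ± 0.24% in control libraries (SD, n = 3 each). The sixth transcript, a reference form of the skipping type, was listed at 0 in every library.

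The exons at the end of Itga3, Itga6 and Itga7 have a common layout. The exon before the alternative exon is 126 bp in all 3 genes. The alternative exon is 141 bp in Itga3, 130 bp in Itga6 and 113 bp in Itga7, which leave remainders of 0, 1 and 2 when divided by 3. Itga3 has the shorter introns, with 334 bp before and 650 bp after its alternative exon. The introns before and after are 3605 and 2245 bp in Itga6, and 2849 and 854 bp in Itga7. The Itga6 exon lies on chromosome 3 between 64998469 and 64998598 and the Itga7 exon on chromosome 7 between 3352725 and 3352837, both on the plus strand.

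**Figure D2:**
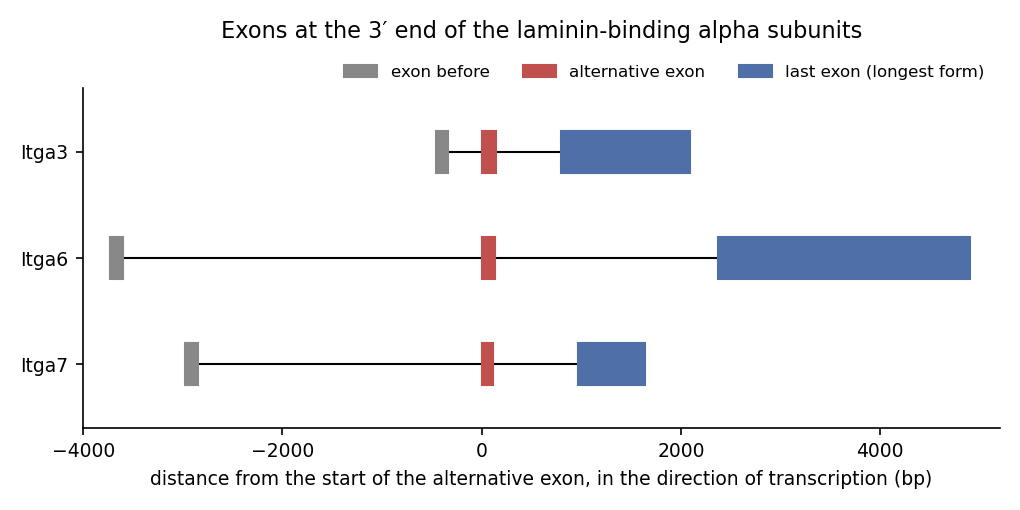
Exon layout at the 3′ end of Itga3, Itga6 and Itga7, drawn to scale against the distance in bp from the start of the alternative exon in the direction of transcription; boxes are exons and lines introns. The introns that flank the alternative exon of Itga3 (334 and 650 bp) are shorter than those of Itga6 and Itga7.

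Itga6, which encodes the alpha-6 laminin receptor subunit, was at a low level, and inclusion of its alternative exon was lower in the knockdown libraries, the other way from Itga3, without passing a test. Inclusion of its alternative exon was 5.66%, 35.0% and 5.74% in knockdown batches 1, 2 and 3, against 16.6%, 42.5% and 47.2% in control batches 1, 2 and 3. The knockdown value was the lower in every batch, and the group ranges overlapped. The longer transcript with the exon rested on 18.3, 248 and 29.8 estimated reads in knockdown batches 1, 2 and 3. In control batches 1, 2 and 3 it rested on 92.4, 308 and 228. By estimated reads in place of RPKM, inclusion in control batch 2 was 56.6%. The exon did not reach the summed 1 RPKM that the exon fit required in 3 libraries, so it was not tested there. In the transcript fit (limma diffSplice) the transcript with the exon departed from its gene by -2.32 on the log2 scale (SE 1.68), and did not pass (adjusted p = 0.82). In control batch 2 the transcript that skips the exon was listed at 0 and a shorter reference transcript took 57.5% of the gene, so that library's value rests on another transcript than the rest. Itga7, whose product is known from muscle, gave 18 to 32 estimated reads in knockdown and 20 to 32 in control libraries. Inclusion of its exon was 100%, 0% and 0% in knockdown and 0%, 27.7% and 39.9% in control libraries, which at this depth shows no order. A further Itga7 transcript, counted as neither form, took 48.8% and 65.8% of the gene's RPKM in knockdown batches 2 and 3. In control batch 2 it took 5.14%.

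Itgav, which encodes the alpha-v subunit of receptors for vitronectin and fibronectin, was assembled with an internal exon that starts at either of 2 acceptors 3 nt apart, at 77655090 and 77655093 on chromosome 3 (plus strand). The exon is then 131 or 128 bp. The downstream acceptor took 56.1%, 67.1% and 56.3% of the gene's RPKM in knockdown batches 1, 2 and 3, against 27.7%, 14.8% and 56.2% in control batches 1, 2 and 3. Batches 1 and 2 differed by 28.4 and 52.3 percentage points, and batch 3 by 0.15. The transcript with the downstream acceptor departed from its gene by 1.35 on the log2 scale (SE 0.56), and did not pass in limma diffSplice (adjusted p = 0.53). It shares all of its 7201 bp with the alternative, which has 3 bp more.

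**Figure D3:**
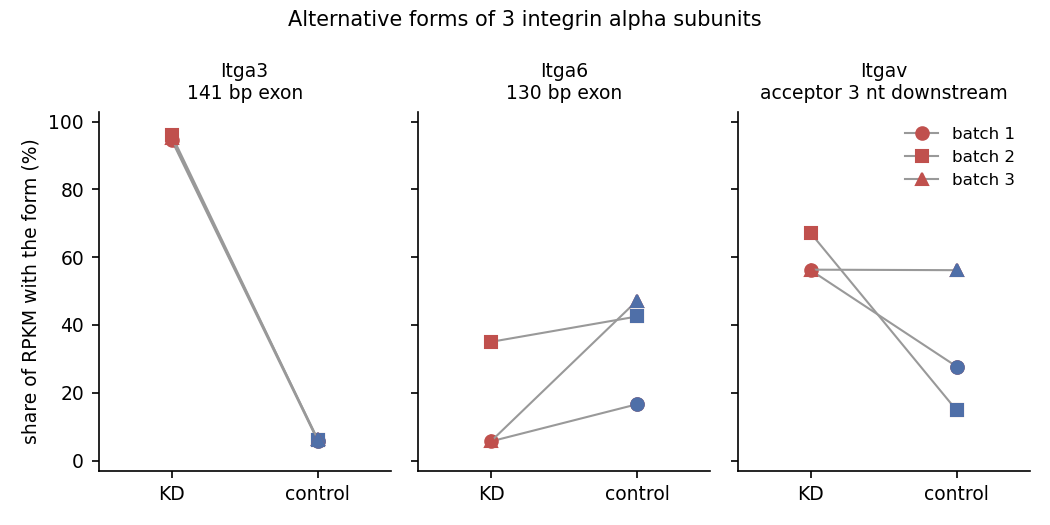
Percentage of RPKM with the 141 bp exon of Itga3, the 130 bp exon of Itga6 and the downstream acceptor of Itgav; red markers are knockdown and blue markers control libraries, and a line joins the libraries of a batch. The Itga3 lines of the 3 batches lie on each other, while the batches of Itga6 and Itgav spread.

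Itga1, which encodes the alpha-1 collagen receptor subunit, was assembled as a transcript of 29 exons and a shorter one of 25 exons with another last exon. The shorter one was listed at 0, 0 and 0.0955 RPKM in knockdown batches 1, 2 and 3, against 0.0593, 0 and 1.89 RPKM in control batches 1, 2 and 3. Only control batch 3 held a sizeable amount, where it was 86.3% of the gene. The departure of -4.67 from the gene on the log2 scale (SE 1.15) did not pass (adjusted p = 0.32 in limma diffSplice). Of 7 tested transcripts of Itga1, Itga6 and Itgav, 0 passed in limma diffSplice, while 3 had an unadjusted p below 0.05. Both Itga1 transcripts are among the 3, and they give the same comparison with opposite signs, as do the tested transcripts of Itga6. The counts are therefore not of separate comparisons. Over all 31429 transcripts tested, 0.309% passed and 9.01% had an unadjusted p below 0.05. Itgb1, Itga2 and Itga5 have 1 assembled transcript each. Itgb4 has 2 transcripts that differ by an exon of 159 bp, and the transcript with this exon was listed at 0 in every library.

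Of 7303 cassette exons in the assembly, 5076 in 3082 genes passed the filter on level. Their median absolute difference in mean inclusion was 5.56 percentage points and the 95th percentile 30.1. The exon fit in limma called 0 of 5076 exons (0%), with 237 at an unadjusted p below 0.05 and a smallest adjusted p of 0.35. The Itga3 exon was kept in this fit, which runs over the whole table, and no test of it is read from these counts. In 4 exons the inclusion differed by over 50 percentage points in the same direction in all batches. Apart from Itga3 these are exons of Cryzl1, Ash1l and Ndst4, named after their values were seen. The exon of Ndst4, a heparan sulfate enzyme, was at 100% in all knockdown libraries and 22.6 ± 16.2% in control libraries (SD, n = 3). Its level was low. The including form was at 0.741, 2.36 and 0.792 RPKM in knockdown batches 1, 2 and 3, where the skipping form was listed at 0. The exon of Ash1l, a histone methyltransferase, was at 6.35 ± 11.0% in knockdown and 82.3 ± 16.8% in control libraries, and that of Cryzl1 at 16.5 ± 15.8% and 94.7 ± 4.60%, also with knockdown first.

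The 5 exons whose inclusion over the 6 libraries was nearest to that of Itga3 belong to Ndst4, Bicc1, Adissp, Ccdc91 and Gon4l. Their mean absolute difference from Itga3 was 10.7, 14.6, 15.4, 16.0 and 16.2 percentage points in that order, over libraries that share their batches. The exon lengths were 1217, 79, 165, 78 and 144 bp, so those of Adissp, Ccdc91 and Gon4l are multiples of 3 like that of Itga3. Each had a library away from the others of its group, which for Ndst4 was control batch 2 at 41.3%, against 12.4% and 14.2% in control batches 1 and 3. The 5 exons were picked for nearness to Itga3 in these same libraries, so how far their groups lie apart largely follows from the choice. The groups overlapped for Ccdc91 and not for the others. The exon of Ccdc91 was at 93.0%, 93.4% and 94.5% in knockdown batches 1, 2 and 3, against 7.28%, 6.83% and 95.5% in control batches 1, 2 and 3.

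In level per length, Itgb1 and Itga3 led the integrin genes in both groups. Itgb1, the common beta subunit of laminin, collagen and fibronectin receptors, was at 125, 149 and 131 RPKM in knockdown batches 1, 2 and 3, against 138, 142 and 138 RPKM in control batches 1, 2 and 3. Itga3 followed at 32.3 ± 12.6 RPKM in knockdown and 33.0 ± 14.7 RPKM in control libraries, then Itgav at 8.27 ± 0.95 and 7.67 ± 0.58 RPKM, with knockdown first (SD, n = 3 each). Itga3 made up 66.7% to 81.4% of the RPKM summed over the 7 alpha subunits in knockdown libraries, and 64.4% to 84.5% in control libraries. Itga6 made up 1.09% to 2.05% in knockdown and 0.80% to 1.75% in control libraries.

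**Figure D4:**
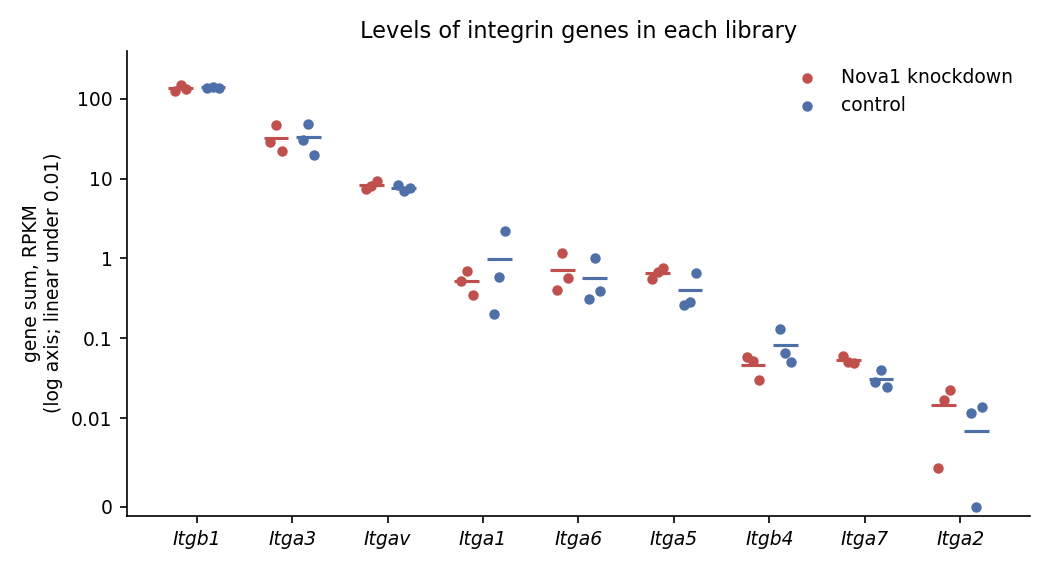
RPKM summed over the transcripts of each integrin gene (log axis, linear under 0.01); points are libraries, bars group means, with knockdown in red and control in blue. Itgb1, Itga3 and Itgav stand apart from each other in each group, while Itga6, Itga5 and Itga1 overlap.

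Behind these came Itga6 at 0.716 ± 0.40 RPKM in knockdown and 0.573 ± 0.39 RPKM in control libraries, Itga5 at 0.657 ± 0.10 and 0.399 ± 0.22 RPKM, and Itga1 at 0.516 ± 0.17 and 0.993 ± 1.06 RPKM, with knockdown first in each pair. The ranges of these neighbours overlapped in both groups. Itga7 and Itgb4, the partner of alpha-6 in hemidesmosomes of epithelia, were below 0.13 RPKM in every library, and their ranges overlapped in knockdown libraries but not in control libraries. Itga2, which encodes the alpha-2 collagen receptor subunit, gave 2 to 12 reads in knockdown and 0 to 12 in control libraries and did not pass the filter on low reads.

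Apart from Itga3, 0 of 7 integrin genes that passed the filter were called in limma at an adjusted p below 0.05, against 1.71% of all 15983 genes tested (274 genes). At an unadjusted p below 0.05 were 3 of the 7, namely Itga6, Itgb4 and Itga5, against 23.9% of all genes. The median log2 fold change of the 7 was 0.15, with 4 positive, and that of all genes was 0.00. Itgb1 had a value of -0.10 (SE 0.05, adjusted p = 0.31 in limma). Itgav had 0.15 (SE 0.08, adjusted p = 0.31 in limma), and between 0.07 and 0.25 without a batch.

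Itga6 had 2.53, 6.43 and 3.56 CPM in knockdown batches 1, 2 and 3, against 1.98, 4.36 and 2.54 CPM in control batches 1, 2 and 3. The knockdown was the higher library in every batch and batch 2 the highest in each group, so that the group ranges overlapped. The log2 fold change was 0.48 (SE 0.09) and did not pass (adjusted p = 0.073 in limma). The summed markers of alpha cells, the glucagon-secreting cells of the islet, were 7198, 13938 and 10259 CPM in knockdown batches 1, 2 and 3, against 5306, 13059 and 8227 CPM in control batches 1, 2 and 3. All 5 alpha cell markers had a positive log2 fold change, against 50.8% of all genes tested, and 0 passed, against 1.71%. The part of alpha cells in the Itga6 value was not tested.

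Itgb4 had 0.353, 0.277 and 0.182 CPM in knockdown batches 1, 2 and 3, against 0.789, 0.368 and 0.319 CPM in control batches 1, 2 and 3. The knockdown was lower in every batch, with a log2 fold change of -0.87 (SE 0.26) that did not pass (adjusted p = 0.14 in limma). These values rest on 26 to 44 reads in knockdown and 48 to 218 in control libraries. The 9 acinar cell markers summed to 359, 244 and 120 CPM in knockdown batches 1, 2 and 3, against 482, 304 and 167 CPM in control batches 1, 2 and 3, in the same order of batches as Itgb4. Of these, 8 had a negative log2 fold change and 1 fell, where 50.8% of all genes tested were positive and 1.2% fell. Among the 7 duct cell markers, Sox9 and Cftr did not pass the filter. The duct list summed to 324, 195 and 290 CPM in knockdown batches 1, 2 and 3. In control batches 1, 2 and 3 it summed to 254, 180 and 229 CPM. In every batch the duct sum was higher in the knockdown library, the other way from Itgb4. The part of acinar and duct cells in the Itgb4 value was not tested.

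Itga5, which encodes the alpha-5 fibronectin receptor subunit, had 2.55, 2.73 and 3.48 CPM in knockdown batches 1, 2 and 3, against 1.20, 1.21 and 3.18 CPM in control batches 1, 2 and 3. Control batch 3 lay among the knockdown libraries. The log2 fold change was 0.65 (SE 0.24) and did not pass (adjusted p = 0.19 in limma). It was 0.47 without batch 1 and 0.51 without batch 2 (adjusted p of 0.40 and 0.38 in limma). It was 1.12 without batch 3, where the adjusted p in limma was 0.058. Stellate cell and fibroblast markers summed to 109, 117 and 140 CPM in knockdown batches 1, 2 and 3, against 44.2, 52.2 and 98.2 CPM in control batches 1, 2 and 3. The groups did not overlap in these sums, and within each group the order of the batches was that of Itga5. Of 11 such markers tested, 8 had a positive log2 fold change, against 50.8% of all genes tested, and 1 rose, against 0.513%. The part of stellate cells and fibroblasts in the Itga5 value was not tested.

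Itga1 was higher in the knockdown library of batches 1 and 2 and lower in batch 3, at 2.15, 2.52 and 1.39 CPM in knockdown against 0.809, 2.28 and 8.64 CPM in control batches 1, 2 and 3. The log2 fold change was -0.93 (SE 0.76, adjusted p = 0.49 in limma), -1.60 without batch 1 and 0.74 without batch 3, where it did not pass (adjusted p = 0.30 in limma). Itga7 had 0.257, 0.166 and 0.182 CPM in knockdown and 0.116, 0.153 and 0.106 CPM in control batches 1, 2 and 3. Its log2 fold change of 0.74 (SE 0.35) did not pass (adjusted p = 0.27 in limma). The Itga7 values rest on 18 to 32 reads in knockdown and 20 to 32 in control libraries. Leaving out batch 1 gave 0.46 (adjusted p = 0.63 in limma), and leaving out batch 2 gave 0.98 (adjusted p = 0.30 in limma).

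**Figure D5:**
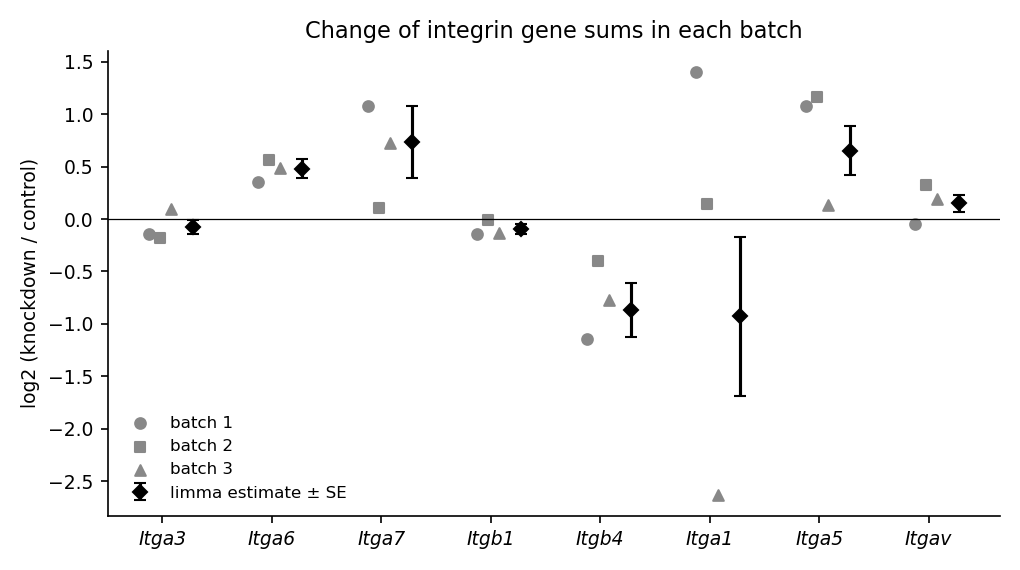
Log2 ratio of knockdown over control for the gene sum of each integrin gene that passed the filter, in each batch (grey) and as the limma estimate with its standard error (black). Itga6, Itga7 and Itga5 lie above 0 and Itgb1 and Itgb4 below 0 in all batches, and Itga1 spreads from 1.40 to -2.63.

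Among the ligands, the genes that rose in the knockdown were Lamc1, Col4a1 and Col4a2. Of 10 tested laminin chains, 6 had a positive and 4 a negative log2 fold change, where 50.8% of all genes tested were positive. Of these chains 1 rose, against 0.513% of all genes tested, 0 fell, against 1.2% of all genes, and the median log2 fold change was 0.31. Lamc1 encodes the gamma-1 chain found in most laminins and had the highest level of the list. It was at 45.7, 43.0 and 42.6 CPM in knockdown batches 1, 2 and 3, against 33.7, 33.1 and 27.8 CPM in control batches 1, 2 and 3. Its log2 fold change was 0.48 (SE 0.06, adjusted p = 0.046 in limma). Of 14 other basement membrane ligands tested, 11 had positive values, 2 rose, 0 fell and the median was 0.33. Col4a1 and Col4a2, which encode the chains of the common type IV collagen, rose by 0.90 (SE 0.07) and 0.89 (SE 0.13) on the log2 scale (adjusted p of 0.036 and 0.047 in limma). Col4a1 was at 9.54, 20.6 and 9.12 CPM in knockdown and 4.87, 10.8 and 5.31 CPM in control batches 1, 2 and 3. Col4a2 was at 5.29, 9.01 and 4.60 CPM in knockdown and 2.35, 4.85 and 3.06 CPM in control batches 1, 2 and 3. For both genes the knockdown was higher in every batch, batch 2 was the highest in each group, and the group ranges overlapped. Fn1, which encodes fibronectin and had the highest level of this list, was at 68.4 ± 35.3 RPKM in knockdown and 70.8 ± 34.2 RPKM in control libraries (SD, n = 3) and did not pass (adjusted p = 0.31 in limma). The genes of both lists are also made by the stellate cells and fibroblasts whose markers are given above, and the part of those cells in these values was not tested.

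Inside the cell, Fermt2, which encodes kindlin-2, an activator of integrins that binds beta subunit tails, rose. It was at 46.4, 65.4 and 46.6 CPM in knockdown batches 1, 2 and 3, against 30.9, 46.6 and 30.4 CPM in control batches 1, 2 and 3. The log2 fold change was 0.56 (SE 0.05, adjusted p = 0.036 in limma), at 0.58, 0.49 and 0.61 in batches 1, 2 and 3. Of 32 tested activators, adaptors and inhibitors, 1 rose and 0 fell, against 0.513% and 1.2% of all genes. Positive values were found for 25 of the 32, against 50.8% of all genes, with a median of 0.08. Rap1b, a small GTPase upstream of talin, had the highest level of this list, at 79.8 ± 5.15 RPKM in knockdown and 85.9 ± 12.4 RPKM in control libraries, and did not pass (adjusted p = 0.18 in limma).

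None of the 3 other lists held a called gene, against 1.71% called and 23.9% at an unadjusted p below 0.05 among all genes tested. The 12 tested integrin subunits outside the 9 had a median log2 fold change of 0.19, with 4 at an unadjusted p below 0.05. The highest of them was Itgb6, a beta partner of alpha-v, at 8.62 ± 1.95 RPKM in knockdown and 7.29 ± 1.44 RPKM in control libraries (log2 fold change 0.20, adjusted p = 0.10 in limma). The 17 tested gene models of tetraspanins and other membrane partners had a median of -0.07, with 5 at an unadjusted p below 0.05. Cd151 and Tspan4 stand in the assembly as 2 gene models each, with nearly equal values, and both models of Cd151 are among the 5. The highest member of the list, Cd63, a tetraspanin of late endosomes, was at 928 ± 333 RPKM in knockdown and 975 ± 306 RPKM in control libraries. The 8 tested laminin receptors of other kinds had a median of -0.08, with 3 at an unadjusted p below 0.05. Their highest member was Rpsa, a ribosomal protein also known as a laminin receptor, at 399 ± 148 RPKM in knockdown and 417 ± 142 RPKM in control libraries.

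The calls of the 4 genes that rose in these lists were lost under several alternatives. Without batch 1 or without batch 2, Lamc1, Col4a1, Col4a2 and Fermt2 did not pass in limma, with adjusted p of 0.14 to 0.20. Without batch 3, Lamc1 did not pass (adjusted p = 0.077) and the other 3 genes did, and without the batch block or with limma on log2(RPKM + 1), 0 of the 4 passed. The same held with log2(RPKM + 0.1). Col4a2 also missed the threshold with the stricter filter, no filter, library totals alone and the length correction, at adjusted p of 0.0505 to 0.0516 in limma, and passed in 2 of 11 alternatives. Lamc1 also missed it with the stricter filter and with no filter, at adjusted p of 0.0505 and 0.0508 in limma, and passed in 3 of 11. Col4a1 and Fermt2 passed in 6 of 11 each. The log2 fold changes of the 4 genes without batch 1, 2 or 3 stayed between 0.41 and 1.03.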

How the data were processed

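Per the submitters' processing notes, alignment was by TopHat and the build was Rnor_5.0. For each assembled transcript the authors deposited, as text in each library's annotation, estimated reads, a length and an RPKM value. Which program estimated them, and whether it used strand, is not stated in any source read here. Of gene sums, 92.5% were within 0.01 of a whole number and 99.9% of those were even, so both reads of a pair appear to be counted. Identifiers were matched to symbols for 517 of 5699 gene models named only by an identifier, through a RefSeq table on GRCr8 used for names alone.

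Reads were summed per gene and scaled by trimmed means of log ratios (trimming 30% by ratio and 5% by level) over genes that passed the filter. The filter asked for 15 reads in all and, in 3 or more libraries, for what 10 reads are at median depth. Gene values were then fitted with limma 3.58.1 (voom, in R 4.3.3) on group and batch, leaving 2 residual degrees of freedom, with Benjamini-Hochberg adjustment over all features and a threshold of 0.05. Transcripts were tested with diffSplice. Cassette exons were tested in limma on log2 of including over skipping RPKM with an offset of 0.1, for exons with at least 1 RPKM in 3 libraries and 0.1 RPKM of each form in a library. Reads are held as attribute text, so no count model was used. Each fit was also run on simulated data with known changes. The spread of those data was set by hand, so the run does not show how the fits perform at the spread of these libraries.

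The labels number the batches, which pairs the libraries. Deviations from the group mean correlated between the libraries of a batch at 0.58, 0.87 and 0.78 in batches 1, 2 and 3. The genes, lists and tests were chosen with earlier results of these data known. Named are the 9 genes, in each list the called genes (up to 4) and the member with the highest RPKM, and the 5 exons nearest to that of Itga3. Alternatives were no block, leaving out each batch, other scalings and filters, a correction for transcript length, limma on log2(RPKM + 1) or log2(RPKM + 0.1), and other offsets. Counting all transcripts of Itga3 was added after seeing the data. No sequence is printed, because no genome of the build was used here.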

Additional observations from a re-analysis of the deposited data

How the results depend on the processing

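The difference in Itga3 exon inclusion was 89.1 percentage points with all batches and 88.7 to 89.3 without each batch. It was 88.8 with estimated reads and 89.4 with all transcripts of the gene counted. Averages over fewer batches must lie within the spread between batches, and the exon was selected on these values. These figures are therefore a description and no test of it. The 7 tested integrin genes and 7 integrin transcripts gave 0 calls under every alternative run, and the A or B exon of Itga6 could not be fitted under any. The log2 fold change of Itga1, -0.93 with all batches, ranged from -1.60 to 0.74 without a batch, and reversed to 0.74 without batch 3. The 82 genes called higher and 192 called lower became 33 and 86 with a filter 5 times stricter, 46 and 125 with no filter, 156 and 427 with the length correction, 47 and 44 with library totals alone (51.6% higher, against 29.9%), and 0 and 0 with no replicate block or with limma on log2(RPKM + 1) or log2(RPKM + 0.1). Leaving out a batch gave 0 to 32 higher and 0 to 46 lower: 1 and 3 without batch 1, 0 and 0 without batch 2, 32 and 46 without batch 3. The 97 transcripts called became 43 with the stricter filter, 165 with diffSplice on log2(RPKM + 0.1), and 0 to 2 without a batch. Exons called were 1 with no replicate block, the 141 bp exon of Itga3, and 0 otherwise, and since that exon was selected on these values this is no test of it. The block changed no call of the 7 other integrin genes. The cause of these changes was not tested. With 3 batches, 2 residual degrees of freedom and under 50 reads for Itga7 and Itga2 in each library, small changes of the low genes were not detectable.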
